A study of Caenorhabditis elegans with 23 samples.

Results

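The genes described here are 74 Caenorhabditis elegans genes that the deposited tables name only by a sequence name, such as T27A3.4, and whose level was higher than in wild type in both the gld-2 and the cpb-3 mutant. They were chosen by their measured levels, from 14590 gene rows with a sequence name, of which 10247 had any count. Level is given as CPM, a gene's read count over the library's total without the ribosomal RNA gene rows, in parts per 1000000. A gene was taken when its mean CPM reached 2 in each mutant and at least 4 times the N2 mean plus 0.1 in each. The rule therefore fixes that these genes are high in the mutants against N2, and those contrasts are given below as a description, with no test. The current reference annotation calls all 74 protein coding. It gives a locus name to 11 of them, and 63 have none.

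The data are PAT-seq libraries, which read the 3′ end of polyadenylated RNA and into the poly(A) tail, so that each gene has a read count and a mean tail length. In sequencing run 1, whole young adults were measured in 3 libraries each of N2 (wild type), of gld-2(q497) and of YM19 cpb-3(bt17). In run 2, whole young adults of gld-2(q497) were fed bacteria expressing either the non-targeting control pcb19 or double-stranded RNA of ccr-4, ccf-1, panl-2, caf-1 or parn-1, in 2 libraries per RNAi. Run 2 also had 2 libraries of 1- and 2-cell N2 embryos. Every RNAi group, its control included, thus carries the gld-2 mutation. One protocol text names N2 for the RNAi worms while the strain labels name gld-2(q497), and the labels were followed. The labels give neither the sex of the worms nor whether replicates were separate cultures, so the p-values measure only the spread between these libraries.

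C. elegans hermaphrodites make sperm first and then switch to oocytes, so sperm transcripts are made before adulthood and a young adult mainly makes oocytes. GLD-2 is a cytoplasmic poly(A) polymerase that lengthens the tails of germline mRNAs, and germ cells without it do not complete meiosis normally. CPB-3 is a germline RNA-binding protein of the CPEB family, a family known for the control of tail length and translation. Genes used in spermatogenesis are known to be rare on the X chromosome, which is silenced in the male germline. PARN-1, PANL-2, CCF-1 and CCR-4 are deadenylases, or subunits of deadenylase complexes, which shorten tails.

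Several of the 11 genes with a locus name are known from sperm. T27A3.4, C10G11.9 and C04G2.8 are spch-3, spch-2 and spch-1, which encode sperm chromatin proteins. C41G7.6 is cylc-2, named for cylicin, a protein of the mammalian sperm head. C25G4.6 is smz-1, named for sperm meiosis and for its PDZ domain, and F32A11.3 is spe-18, one of the genes whose loss disrupts spermatogenesis. W01B6.2 is ttbk-4, of the tau tubulin kinase family, ZK550.5 is phyh-1, C04G2.9 is nsph-3.2, ZK484.5 is msrp-2 and C25D7.1 is melo-3. The first 5 of these, the spch genes, cylc-2 and smz-1, also stood in a list of 65 sperm genes drawn up for comparison. The other 60 sperm genes are used below as a reference list. None of the names was used by the rule.

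The 74 genes lay on 5 of the 6 chromosomes, and none lay on X. Chromosome IV held 24 of them, or 32.4%, chromosome I held 22, chromosome II held 12, chromosome V held 11 and chromosome III held 5. X held 19.6% of all sequence-name rows with a count and 13.9% of the 3541 sequence-name rows that reached 2 CPM in both mutants. Of the 60 other sperm genes, 32 lay on chromosome IV and 0 on X. Rows of the tables and the 74 genes are not independent draws, since neighbours and gene copies occur among them, and no test was made.

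**Figure D1:**
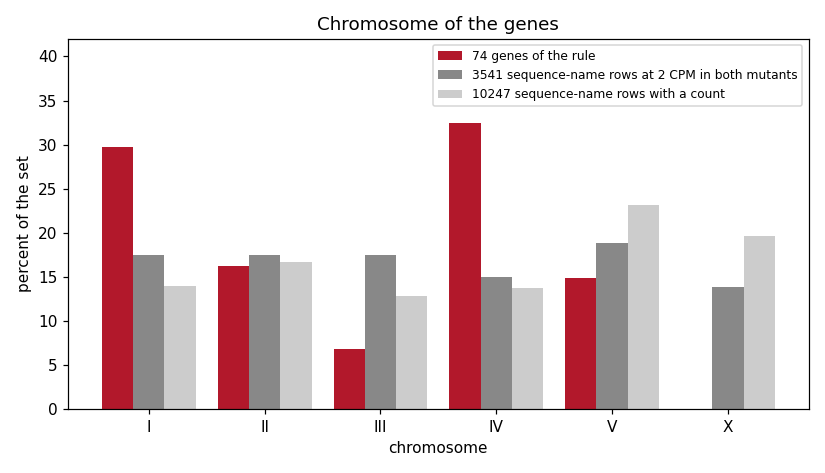
Percent of each set of gene rows (vertical axis) on each of the 6 nuclear chromosomes (horizontal axis), for the 74 genes, for the 3541 sequence-name rows at 2 CPM in both mutants and for all 10247 sequence-name rows with a count. The bar of the 74 genes is absent at X and tallest at chromosome IV, where it stands at 32.4%.

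The genes were short. Their reference models had a median of 3 exons and 655.5 coding bases, from 159 in F34D10.8 to 2682 in C34F11.5, and 7 of the 74 (9.46%) had a single exon. The 3344 other sequence-name rows at the same minimum CPM that had a model had a median of 5 exons and 960 coding bases, with 1.53% in a single exon. Among the 74 there were 8 pairs that lay within 20000 bases of each other. ZK484.5 and T27A3.4 stood 11278 bases apart on chromosome I, and C10G11.8 and C10G11.9 923 bases apart on the same chromosome. C04G2.8 and C04G2.9 were separated by 1418 bases on chromosome IV, and K06A5.3 and K06A5.2 by 697 bases on chromosome I. The opposite-strand pair C33F10.11 and C33F10.1 on chromosome II was 297 bases apart. T08B2.12 and C48E7.7 have equal coding lengths of 456 bases, K01D12.15 and K01D12.7 of 252 bases, and T27A3.4 and C10G11.9 of 609 bases. Where such genes are near-identical copies, reads may have been split between them, and the separate values within such a pair are uncertain.

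Against N2, the summed level of the 74 genes was 79.9 ± 15.9 CPM (SD, n = 3) in N2, 3036 ± 426 CPM in gld-2 and 631 ± 37.9 CPM in cpb-3. The median gene stood at 0.623 CPM in N2, 13.7 CPM in gld-2 and 5.11 CPM in cpb-3. The fold over the N2 mean plus 0.1 ran from 4.33 to 169 in gld-2, with a median of 22.2, and from 4.001 to 20.5 in cpb-3, with a median of 6.90. In N2 the levels were close to the limit of detection, which is 0.317 to 0.470 CPM for 3 reads in a library, and C27D8.2 had no read in any N2 library. In whole worms, more cells of a type and more RNA per cell cannot be told apart.

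Genes close to the thresholds show how the choice was bounded. Just inside the fold were F49C12.15 at 4.001, C33F10.11 at 4.03 and Y48B6A.5 at 4.06 in the lower of the mutants. C44C11.6 at 3.99, C04F12.7 at 3.96 and F13A7.1 at 3.93 fell just outside it. At the CPM minimum, F17C8.7 with 2.02 CPM, C27D8.2 with 2.05 CPM and K07A1.5 with 2.07 CPM in cpb-3 were kept. C33F10.12 with 1.99 CPM, F58G1.3 with 1.97 CPM and R148.7 with 1.97 CPM were not, and 94 rows in all passed the fold but not the minimum. The set was 20 genes with an offset of 1 CPM in place of 0.1, 37 with a minimum of 5 CPM and 25 with a fold of 8.

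The same libraries differed in the levels of other lists. The 60 other sperm genes summed to 242 to 356 CPM in N2, 5949 to 7598 CPM in gld-2 and 1879 to 2460 CPM in cpb-3. The 22 oocyte genes summed to 11995 to 12674 CPM in N2, 5149 to 6896 CPM in gld-2 and 10144 to 14102 CPM in cpb-3. The 8 markers of male somatic tissue summed to 1.92 to 2.82 CPM in N2, 5.79 to 8.74 CPM in gld-2 and 2.94 to 3.83 CPM in cpb-3, so the N2 libraries lay below those of both mutants. In the mutants the sum was mostly mab-3, a regulator of male development, at 5.55 CPM in gld-2 and 2.52 CPM in cpb-3 on average. In N2 mab-3 was at 0.641 CPM of a mean sum of 2.46 CPM. A higher mean than in N2 was seen for 5 of the 8 markers in gld-2 and for 2 of the 8 in cpb-3, so the list did not rise as a whole. Of the 8, cwp-1 was at 0 counts in all gld-2 libraries, and cwp-1 and cwp-3 were in all cpb-3 libraries. The part of spermatogenic or male tissue in the values of the 74 genes was not tested. Totals ran from 2200091 to 15952606 counts per library, of which the ribosomal RNA rows held 3.76% to 34.8%. As a check of the strains, the gld-2 gene itself was at 16.8 ± 0.805 CPM in N2, 5.50 ± 1.56 CPM in gld-2, 13.1 ± 2.32 CPM in cpb-3 and 26 ± 0.542 CPM in embryos (SD), and between 2.53 and 6.33 CPM on average in the 6 RNAi groups. In the libraries of the matching RNAi, parn-1 stood at 71.6 ± 32.8 CPM against 13.7 ± 0.954 in control RNAi, panl-2 at 697 ± 762 against 16.9 ± 0.630 and ccf-1 at 94.7 ± 2.11 against 88.6 ± 9.22 (SD, n = 2). The caf-1 and ccr-4 RNAi were not checked here, since the tables used hold no one-gene row under those names. None of parn-1, panl-2 and ccf-1 was lower than in the control, and reads of the double-stranded RNA itself cannot be told apart from those of the worm gene here.

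**Figure D2:**
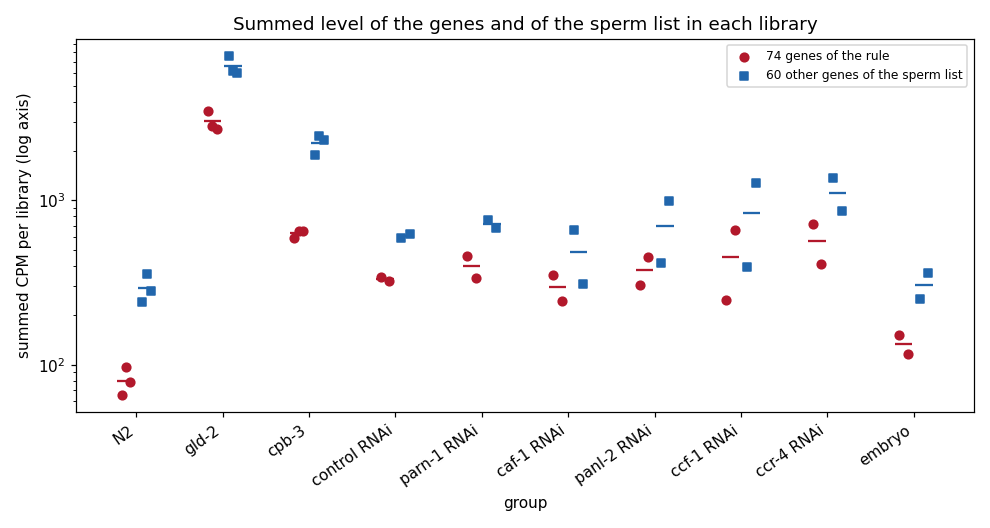
Summed CPM (vertical log axis) of the 74 genes (red circles) and of the 60 other genes of the sperm list (blue squares) in each library of the 10 groups (horizontal axis); each point is a library and each line a group mean. Both sums are lowest in N2 and in embryos and highest in gld-2, with cpb-3 and the RNAi groups between.

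The rule used each mutant against N2 but not the difference between the mutants, which is given next. The same gld-2 and cpb-3 libraries chose the genes, and the minimum and fold in each mutant bound the levels compared. The counts below are therefore not independent of the choice, and all rows, set beside them, were not chosen by that rule. Of the 74 genes, 47 were higher in gld-2 than in cpb-3 and 1 was lower, by edgeR's quasi-likelihood test at an adjusted p under 0.05 with Benjamini-Hochberg adjustment over 10333 rows. Over all rows tested, 16.8% were called higher and 19.7% lower. The median fitted log2 difference was 1.65 over the 74 genes and 0.01 over all rows. Every gld-2 library stood above every cpb-3 library in 52 of the 74, against 31.8% of all rows, and every gld-2 library stood below in 2, against 13.6%. Of the sperm list, 37 of the 51 genes tested were higher in gld-2 and 7 were lower, with a median of 1.12. Of 22 oocyte genes, 0 were higher and 20 were lower.

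The most abundant genes were among those called. T27A3.4 (spch-3, chromosome I, 6099010 to 6099674, plus strand, build ce10) had 726, 604 and 565 CPM in the gld-2 libraries and 40.7, 40.3 and 54.3 CPM in the cpb-3 libraries. Its level in N2 was 1.88, 6.48 and 2.54 CPM. The groups were far apart, with a fitted log2 difference of 3.46 ± 0.320 (SE) between the mutants (adjusted p = 1.19e-06).

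C04G2.8 (spch-1, chromosome IV, 10110847 to 10111489, minus strand) had 274, 236 and 199 CPM in gld-2 and 11.2, 14.3 and 12.1 CPM in cpb-3. These differed by 3.93 ± 0.256 (SE) on the log2 scale (edgeR, adjusted p = 3.82e-08). The third sperm chromatin gene, C10G11.9 (spch-2), stood at 88.9 ± 5.32 CPM in gld-2 and 8.92 ± 3.76 CPM in cpb-3 (SD, n = 3). All 3 genes were thus higher in gld-2 with no overlap of libraries.

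The largest difference was in F57H12.5 (chromosome IV, 7967446 to 7969514, plus strand), a gene of 8 exons with no locus name. It had 89.9, 102 and 110 CPM in gld-2, 3.75, 2.98 and 5.14 CPM in cpb-3 and 0.783, 0.295 and 0.635 CPM in N2. Its log2 difference between the mutants was 4.51 ± 0.292 (SE, adjusted p = 3.75e-08). It thus stood below the median gene of the set in cpb-3 and above it in gld-2.

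Among the other abundant genes, ZK484.5 and Y38C1AA.7 had small spreads. ZK484.5 (msrp-2, chromosome I, 6087432 to 6087731, minus strand, a single exon) was at 192, 165 and 157 CPM in gld-2 and 28.5, 30.1 and 18.7 CPM in cpb-3, a log2 difference of 2.42 ± 0.184 (SE, adjusted p = 1.82e-07). Y38C1AA.7 (chromosome IV, 159028 to 159782, plus strand) was at 249, 187 and 186 CPM in gld-2 and 24.8, 23.1 and 21.7 CPM in cpb-3, a log2 difference of 2.85 ± 0.232 (SE, adjusted p = 3.62e-07). In both genes the lowest gld-2 library stood far above the highest cpb-3 library.

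Further abundant genes were also called. T16A9.5 (chromosome V, 14213613 to 14214914, minus strand) was at 124 ± 3.77 CPM in gld-2 and 14.6 ± 6.22 CPM in cpb-3 (SD, n = 3). Y69E1A.1 (chromosome IV, 10947248 to 10948715, minus strand) was at 98.9 ± 13.8 CPM and 17.1 ± 6.78 CPM, and F32A11.3 (spe-18, chromosome II, 13151475 to 13153246, minus strand) at 86.1 ± 11.2 CPM and 16.8 ± 7.36 CPM. The log2 differences were 2.76, 2.21 and 2.04.

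Some abundant genes were not called. F17E9.5 (chromosome IV, 8345804 to 8346491, plus strand) had 99.6, 44.9 and 35.6 CPM in gld-2 and 35.9, 52.3 and 65 CPM in cpb-3, so that the groups overlapped. Its log2 difference was -0.14 ± 0.382 (SE, adjusted p = 0.815). E03H12.5 (chromosome IV, 4977268 to 4977987, plus strand) had 89.6, 59.9 and 56.9 CPM in gld-2 and 19.8, 28.7 and 45.9 CPM in cpb-3, with a log2 difference of 0.77 ± 0.332 (SE, adjusted p = 0.0818). The libraries of E03H12.5 did not overlap, but the difference did not pass the threshold.

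C15C6.2 (chromosome I, 12203895 to 12205770, plus strand) was the gene called lower in gld-2. It had 9.23, 6.44 and 6.99 CPM in gld-2 and 10.7, 14.0 and 10.6 CPM in cpb-3, against 1.64 CPM on average in N2. The log2 difference was -0.95 ± 0.286 (SE, adjusted p = 0.0169), and the call was lost without gld-2 replicate 2 and without cpb-3 replicate 2. The mean of 4 genes in all was higher in cpb-3 than in gld-2, 22 genes differed by under 2-fold and 5 by over 10-fold in gld-2's favour.

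**Figure D3:**
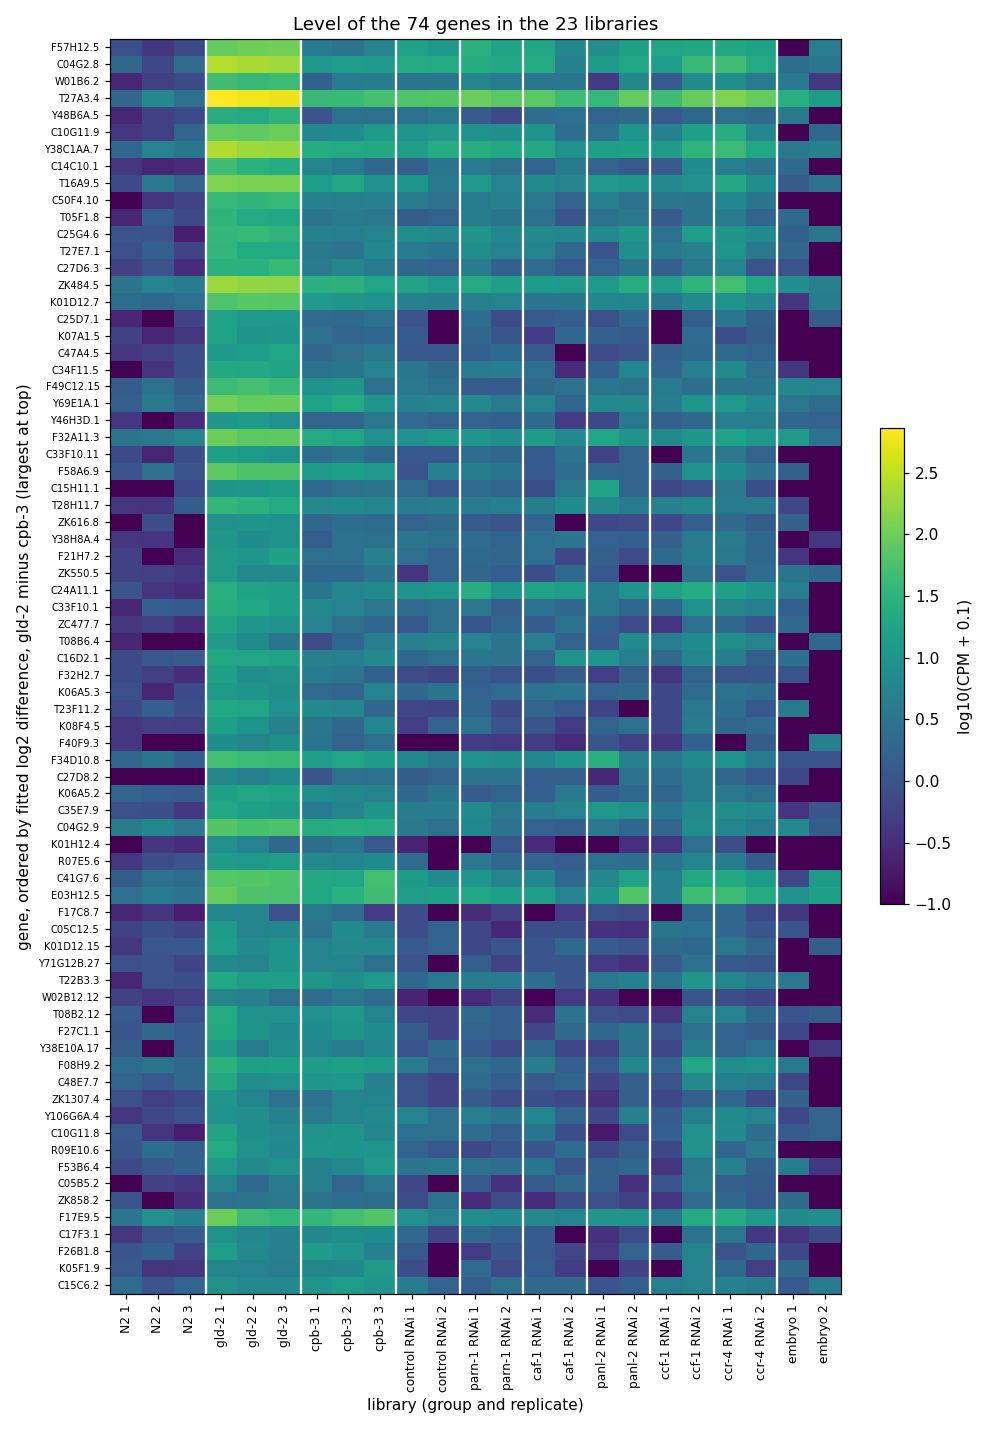
Level of each of the 74 genes (rows) in each of the 23 libraries (columns, white lines between groups), as log10(CPM + 0.1) on the colour scale, ordered from the largest to the lowest fitted log2 difference between gld-2 and cpb-3. The rows at the top, led by F57H12.5 and C04G2.8, are brighter in gld-2 than in cpb-3, and those at the bottom, down to C15C6.2, are of like colour in gld-2 and cpb-3.

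Neighbours in the genome did not always move alike. C10G11.9 (spch-2) was called, while C10G11.8 next to it had 17.8, 8.28 and 6.99 CPM in gld-2 and 9.38, 9.96 and 5.88 CPM in cpb-3, with overlap and a log2 difference of 0.09 ± 0.372 (SE, edgeR, adjusted p = 0.887). C04G2.8 (spch-1) differed by 3.93, and C04G2.9 (nsph-3.2) beside it by 0.99 ± 0.219 (SE, adjusted p = 0.00256), from 60.5 ± 6.13 CPM in gld-2 and 24.5 ± 0.919 CPM in cpb-3 (SD, n = 3). Both were called, with different sizes, and the difference of the sizes was not tested.

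ZK484.5 (msrp-2) and T27A3.4 (spch-3) had log2 differences between the mutants of 2.42 and 3.46, and K06A5.3 and K06A5.2 of 1.61 and 1.14. All 4 were called higher in gld-2 (edgeR, adjusted p at most 0.0134). C33F10.11 and C33F10.1 were at 12.6 ± 3.22 and 20.3 ± 5.54 CPM in gld-2 (SD, n = 3), with log2 differences between the mutants of 2.04 and 1.70, and F58A6.9 and C27D6.3 had log2 differences of 2.01 and 2.53. Each of these was called higher in gld-2 as well. T08B2.12 and C48E7.7, the pair of equal coding length, had log2 differences of 0.39 and 0.21, and neither was called. K01D12.7 was at 67.5 ± 5.43 CPM in gld-2 and 10.5 ± 1.45 CPM in cpb-3, and K01D12.15, of the same coding length, at 10.4 ± 3.73 CPM and 6.12 ± 0.667 CPM, of which K01D12.7 alone was called. For such possible copies the split of reads is uncertain.

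The genes that did not differ in a called way between the mutants varied between the gld-2 libraries. The ratio of gld-2 replicate 1 to the mean of replicates 2 and 3 had a median of 1.84 over the 26 genes that were not called, and 19 of these 26 were over 1.5. Over the 47 genes called higher in gld-2 the median was 1.24 and 10 were over 1.5, while over all 10264 rows tested with a value it was 1.08 and 15.6% were over 1.5. R09E10.6, the gene with the highest ratio at 3.13, had 23.1, 8.55 and 6.17 CPM in gld-2. The summed level of the 26 genes was 561, 332 and 302 CPM in the gld-2 libraries and 220, 257 and 298 CPM in the cpb-3 libraries. That of the 47 was 2952, 2519 and 2421 CPM in gld-2 and 357, 380 and 347 CPM in cpb-3.

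Set against the level in gld-2 replicates 2 and 3 over cpb-3, the ratio fell, with a Spearman correlation of -0.59 over the 74 genes. Both measures share gld-2 replicates 2 and 3, which favours a negative value, and the split of the 74 into 47 and 26 used the same libraries, so this is a description only. Replicate 1 also had the highest oocyte sum of the gld-2 libraries, 6896 CPM against 5198 and 5149 CPM, and its part in the spread was not tested. With gld-2 replicate 1 left out, 42 of the 74 genes were called higher in gld-2 and 1 lower. Over all rows 13.2% were then called higher and 16% lower.

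**Figure D4:**
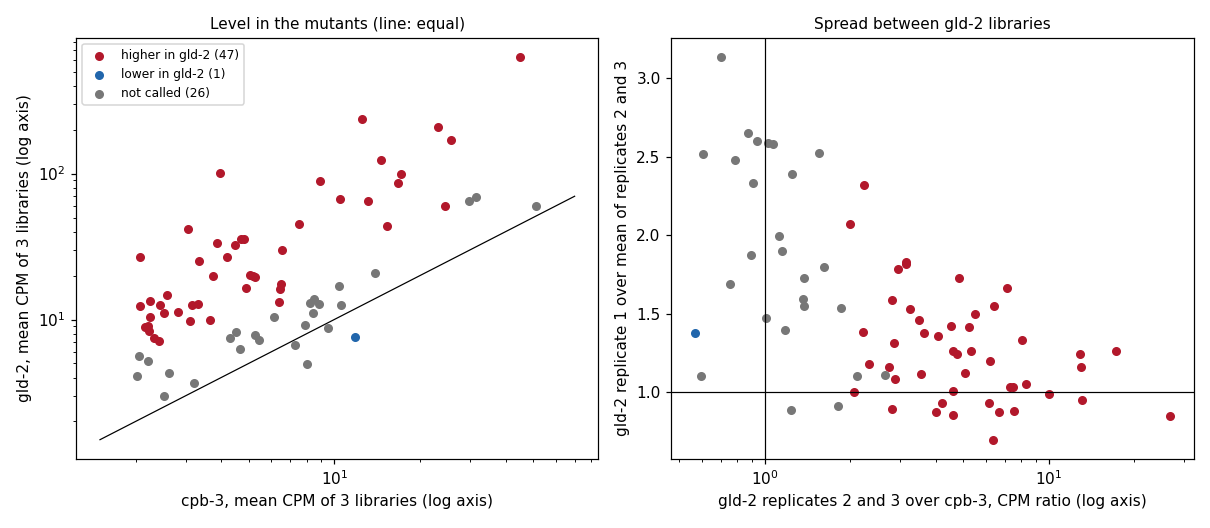
Left: mean CPM of each of the 74 genes in gld-2 against cpb-3 (log axes, n = 3 each, line at equal levels), coloured by call; 47 genes are higher in gld-2, 1 is lower and 26 are not called. Right: the ratio of gld-2 replicate 1 to the mean of replicates 2 and 3 against the CPM ratio of those replicates over cpb-3 (log axis), where most grey points, the genes not called, stand above 1.5.

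Tails of the genes were mostly shorter in gld-2 than in cpb-3. Mean tail length is in nucleotides (nt) over tailed reads, and a library's value was used where it rested on at least 5 tailed reads. Of the 74 genes, 41 had a mean of 20 tailed reads in both mutants and were tested with limma among 7208 rows, and 33 had too few. Of the 41, 13 were shorter in gld-2 and 0 were longer, against 9.5% and 0.153% of all rows. Their median difference was -11.1 nt, that of all rows -3.49 nt. In 22 of the 41, every gld-2 library with a value lay below every cpb-3 library, against 31% of all rows. Of the sperm list, 6 of 40 genes tested were shorter and 1 was longer, with a median of -5.65 nt. Some oocyte genes were called shorter in gld-2 too, such as oma-1 (-16.7 nt), oma-2 (-10.5 nt) and rme-2 (-11.5 nt). Others, such as cav-1 (-1.78 nt) and egg-3 (-7.05 nt), were not called.

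ZK484.5 had tails of 29.8, 31.5 and 33.4 nt in the gld-2 libraries and 55.8, 55.6 and 56.2 nt in the cpb-3 libraries. The libraries of each group lay close together and the groups far apart, by -24.3 ± 2.76 nt (SE, limma, adjusted p = 0.00974). In N2, where the gene had 18 to 37 tailed reads a library, its tails were 38.9, 46.8 and 55.8 nt.

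F49C12.15 (chromosome IV, 9324454 to 9327433, plus strand) had tails of 34.4, 35 and 37.7 nt in gld-2 and 62.7, 65.3 and 77 nt in cpb-3, the last from 7 tailed reads. The difference was -32.6 ± 4.74 nt (SE, adjusted p = 0.0128), the most negative among the 41. W02B12.12 (chromosome II, 11476818 to 11479097, minus strand) had 40.1, 36.4 and 35.2 nt in gld-2 and 67.6, 61.8 and 70.7 nt in cpb-3, a difference of -29.4 ± 4.13 nt (SE, adjusted p = 0.0118). Its level did not pass the test between the mutants (log2 difference 0.43 ± 0.374, SE, adjusted p = 0.401).

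C33F10.1 (chromosome II, 4835075 to 4835668, plus strand) had 22.4, 25.2 and 22.9 nt in gld-2 and 37.9 and 38.4 nt in cpb-3, where replicate 3 had no value. The difference was -14.7 ± 2.05 nt (SE, adjusted p = 0.0134). F17E9.5, whose level overlapped between the mutants, had tails of 29.9, 29.6 and 32.2 nt in gld-2 and 46.4, 43.5 and 39.8 nt in cpb-3. That difference of -12.6 ± 2.46 nt passed the test (SE, adjusted p = 0.0214), so a difference in tail length was also seen without a called difference in level.

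The 3 sperm chromatin genes were not called for tail length. T27A3.4 had 24.1, 23.1 and 22.3 nt in gld-2 and 27.6, 25.8 and 25.8 nt in cpb-3, a difference of -3.26 ± 1.66 nt that did not pass the test (SE, limma, adjusted p = 0.247). C04G2.8 had 28, 28.8 and 28.7 nt in gld-2 and 39.1, 31.5 and 21.3 nt in cpb-3 (difference -2.14 ± 3.96 nt, SE, adjusted p = 0.776). C10G11.9 had 25.2, 24.6 and 26.2 nt in gld-2 and 34.7, 30.4 and 30.3 nt in cpb-3, groups that did not overlap (difference -6.48 ± 1.92 nt, SE, adjusted p = 0.0703). The shortest tails of the set, a gene named after its values were seen, were those of C41G7.6 (cylc-2), with 13.1, 12.4 and 12.3 nt in gld-2 and 14.4, 12.0 and 11.1 nt in cpb-3. Its tails stayed between 8.75 and 14.4 nt in each library of the series that had a value.

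**Figure D5:**
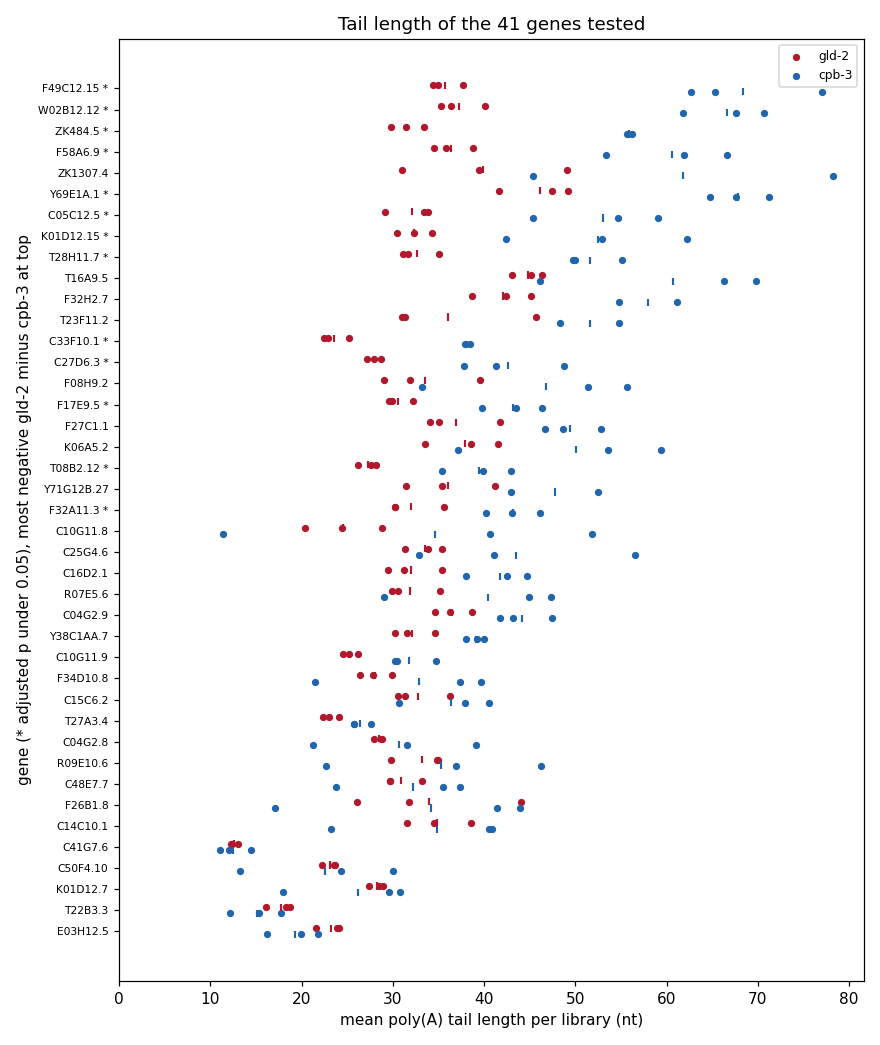
Mean poly(A) tail length in nt (horizontal axis, from 0) in each gld-2 library (red) and each cpb-3 library (blue) for the 41 genes tested (rows), with a short line at each group mean and a star at the 13 genes with an adjusted p under 0.05. In most of the upper rows the red points lie left of the blue ones, with overlap in some, such as ZK1307.4 and T16A9.5. At the bottom, from C14C10.1 down, the group means lie together or in the other order.

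These calls on tails depended on single libraries. Without gld-2 replicate 1, or without gld-2 replicate 2, 0 of the 41 genes passed, and 0 of all rows passed in either case. At an unadjusted p under 0.05 there were then 18 and 17 of the 41, against 18.1% and 19% of all rows. Without cpb-3 replicate 2, 6 of 31 passed, against 5.03% of all rows, and without cpb-3 replicate 3, the mutant library with the fewest counts at 4177617, 23 of 58, against 15.9%. With lengths centred on each library's median, 6 of 41 passed, against 2.97% of all rows, and the median over the genes was -6.99 nt, that over all rows 0.34 nt. In all these settings no gene was called longer in gld-2.

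Against N2, tails are given without a test, as the level contrast chose the genes. Of 34 genes with tails in at least 2 N2 libraries, 29 had a shorter mean in gld-2 than in N2, with a median difference of -11.6 nt, against 66.8% of 9756 rows and a median of -2.06 nt. In cpb-3, 18 of 34 were shorter, with a median of -0.658 nt, and the median of all rows was 1.13 nt. The median gene had tails of 45 nt in N2, 31.9 nt in gld-2 and 38.7 nt in cpb-3, over 34, 74 and 72 genes. In N2 the lengths rest on few reads, as the 74 genes held 415 to 737 counts a library.

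In run 2 the genes were at lower levels in gld-2 worms than in run 1. Under control RNAi their summed level was 342 and 323 CPM, against 2729 to 3522 CPM in the gld-2 libraries of run 1, and all 74 had a lower mean. Over the 73 genes with a read in control RNAi, the ratio of run 1 to control RNAi had a median of 9.05. It ran from 1.44 in T08B6.4, with 7.45 CPM against 5.18 CPM, to 72.8 in K01H12.4, where it rests on 1 read in control RNAi. F40F9.3 had 7.16 CPM on average in run 1 and no read in control RNAi, so its ratio was at least 21.3 (3 counts over both control libraries, 0.336 CPM). The sperm list was also lower, at 587 and 628 CPM against 5949 to 7598 CPM. Run, food bacteria and RNAi cannot be told apart in this contrast, and the genes were chosen for high values in run 1, so no test was made. In control RNAi 62 of the 74 had a higher mean than in N2. The genes were chosen for low values in N2, and these groups stood in different runs, so this is a description only.

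The order of the genes was partly kept between the runs. Over the 74 genes, mean CPM in gld-2 and in control RNAi, which share no library, had a Spearman correlation of 0.74, as a description. T27A3.4 led in control RNAi with 63.7 and 65.2 CPM, followed by C04G2.8 with 23.9 and 22.6 CPM and Y38C1AA.7 with 14.7 and 24.1 CPM. These 3 were also the top 3 over the mutant libraries of run 1.

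None of the genes passed the test for level in any of the 5 RNAi groups against control RNAi. Of the 68 tested by edgeR in each, 0 were called, and 0 of 9840 rows were called in each (0.0%), so the background is the same. At an unadjusted p under 0.05 there were 2 genes under parn-1 RNAi, 0 under caf-1, 6 under panl-2, 0 under ccf-1 and 1 under ccr-4 RNAi. The shares of all rows at that p were 1.26%, 2.35%, 15.8%, 6.49% and 2.5%, so the 6 of 68 genes under panl-2 RNAi, or 8.82%, were a lower share than that of all rows. DESeq2 called 0 of the 74 in each, and 172 of 18865 rows under panl-2 RNAi.

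Summed levels varied widely within groups. The summed level of the 74 genes was 462 and 335 CPM under parn-1 RNAi, 350 and 243 under caf-1 RNAi and 306 and 449 under panl-2 RNAi. It was 247 and 656 CPM under ccf-1 RNAi and 715 and 412 CPM under ccr-4 RNAi. Both ccr-4 RNAi libraries lay above both control libraries, while in each of the other 4 groups at least 1 library lay within or below the range of the control. Under ccr-4 RNAi 60 of the 68 genes had a positive log2 difference, with a median of 0.68 against 0.01 over all rows. Without ccr-4 RNAi replicate 1, 38 of 69 were positive and the median was 0.10, so the shift rests on that library. In the fit with both ccr-4 RNAi libraries, the sperm list had a median of 0.82 and 0 of 43 called. In the ccf-1 RNAi libraries the sperm list moved with the genes, from 395 CPM in replicate 1 to 1285 CPM in replicate 2, and its part was not tested.

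Single genes show the same spread. T27A3.4 had 98.5 and 74.5 CPM under parn-1 RNAi, 73.6 and 44.8 under caf-1, 36.7 and 86.0 under panl-2, 45.4 and 89.4 under ccf-1 and 131 and 89.9 CPM under ccr-4 RNAi, against 63.7 and 65.2 CPM in control RNAi. Under ccr-4 RNAi both libraries were above the control, and under parn-1 RNAi too, while under panl-2 and ccf-1 RNAi they stood on either side of it. C04G2.8 had 47.3 and 22.8 CPM under ccr-4 RNAi against 23.9 and 22.6 CPM, so that a single library was high.

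The panl-2 RNAi libraries differed from each other more than those of any other group, with a chi-square per degree of freedom of 205 over 6271 rows, where the next highest pair, under caf-1 RNAi, had 83.1. Replicate 1 had 85.1% of its reads tailed and replicate 2 had 61.7%, and the sperm list summed to 415 and 987 CPM. The part of these differences in the values of the 74 genes was not tested. Without replicate 2, 1 of 72 genes was called for level under panl-2 RNAi, where 216 of 10712 rows were. Some genes with wide gaps are named here after their values were seen. C15H11.1 had 17.5 CPM in replicate 1 and 1.62 CPM in replicate 2, and F34D10.8 had 28.1 and 4.64 CPM, against 6.15 and 3.59 CPM in control RNAi. E03H12.5 went the other way, with 10.6 and 64 CPM against 14.7 and 15.9 CPM.

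Tails could be followed in run 2 for a few genes only, since most had under 20 tailed reads. Between 9 and 12 of the 74 were tested in each RNAi group. Under ccf-1 RNAi 1 of 11 was longer and 0 shorter, against 17.8% and 0.154% of all rows. The median difference was 3.64 nt over the 11 and 5.48 nt over all rows. Under parn-1, caf-1, panl-2 and ccr-4 RNAi limma called 0 of 12, 9, 11 and 12 genes, where it called 0.0%, 0.0%, 0.0169% and 0.0% of all rows, and at an unadjusted p under 0.05 there were 1, 1, 1 and 0.

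The called gene was F17E9.5, with tails of 28.1 and 25.6 nt in control RNAi and 33.3 and 37.4 nt in ccf-1 RNAi. The difference was 8.55 ± 2.61 nt (SE, limma, adjusted p = 0.0453), and it was no longer called without any one of the 4 libraries. T27A3.4, the gene with the most reads, had 22.7 and 19.9 nt in control RNAi and 23.3 and 26.3 nt in ccf-1 RNAi, a difference of 3.53 ± 1.87 nt that was not called (SE, adjusted p = 0.194). In the other 4 RNAi groups its tails lay between 21.3 and 24.3 nt.

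Embryos were compared with control RNAi worms of the same run, a contrast in which stage, strain and food all differ and cannot be told apart. Of the 67 genes tested by edgeR, 14 were lower in embryos and 0 were higher, against 11.5% and 10.6% of 9900 rows. The median log2 difference was -1.76 over the genes and -0.15 over all rows. Without embryo replicate 1 it was -4.86 over the genes, without control RNAi replicate 1 it was -1.22 and without control RNAi replicate 2 it was -2.03. The other 7 had too few reads, and 39 of the 74 had under 20 reads over both control libraries. With any single control RNAi or embryo library left out, fewer of the genes and a smaller share of all rows were called lower. Control RNAi replicate 1 has more counts than replicate 2. The sperm list had 4 of 44 genes lower and 0 higher, and the oocyte list 13 of 22 higher and 0 lower.

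In both embryo libraries together 14 of the 74 genes had no read. A count of 0 over these libraries allows up to 0.462 CPM (3 counts, counting error only). C50F4.10 had 3.72 and 2.57 CPM in control RNAi and no read in embryos, and so was at least 6.81-fold lower (adjusted p = 0.00563). K06A5.3 had 1.86 and 3.08 CPM in control RNAi and no read in embryos, at least 5.35-fold lower (adjusted p = 0.00935). Its neighbour K06A5.2 had the same number of reads in each control library and none in embryos. T28H11.7 had 4.01 and 4.10 CPM in control RNAi and 0.596 and 0 CPM in embryos, a log2 difference of -3.84 ± 0.814 (SE, edgeR, adjusted p = 0.00632). Without embryo replicate 1, which held its reads in embryos, the difference of T28H11.7 was -7.81, and without embryo replicate 2 it was -2.87.

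T27A3.4 was the most abundant of the genes in embryos too, with 27.1 and 13.7 CPM. That is below the 63.7 and 65.2 CPM of control RNAi (log2 difference -1.84 ± 0.544, SE, adjusted p = 0.0302) and above each of the 3 libraries of N2 adults, the highest of which had 6.48 CPM. E03H12.5 had 8.94 and 16.2 CPM in embryos and 2.51, 3.98 and 2.86 CPM in N2 adults. F32A11.3 had 12.2 and 2.86 CPM in embryos, so its libraries differed widely. Of the 74 genes, 41 had a higher and 33 a lower mean in N2 embryos than in N2 adults. Embryos and adults of N2 stood in different runs, and the genes were chosen for low values in N2 adults, so this was not tested.

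Tails in embryos were testable for 2 genes against control RNAi, and limma called 0, with 2 at an unadjusted p under 0.05 (7.96% of all rows were longer and 0.926% shorter). T27A3.4 had 19.7 and 12.7 nt in embryos against 22.7 and 19.9 nt in control RNAi, a difference of -5.12 ± 2.29 nt (SE, adjusted p = 0.191). F17E9.5 had 29.5 and 52.5 nt in embryos against 28.1 and 25.6 nt, a difference of 14.2 ± 5.46 nt (SE, adjusted p = 0.135).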

How the data were processed

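The analysis used 23 PAT-seq libraries of Caenorhabditis elegans in 10 groups, taken from the labels. The authors deposited raw counts per gene row and library, counts of tailed reads and mean tail lengths in nt. Per the submitters' processing notes, Bowtie, Bowtie2 2.2.4 and the build ce10 were used. The sources used here do not say how reads were counted and filtered or how tails were measured. The 3 rows with a ribosomal RNA gene were left out of library sizes. Levels were tested on the counts with edgeR 4.0.16 (quasi-likelihood, TMM, filterByExpr) and with DESeq2 1.42.0 as an alternative, tail lengths with limma 3.58.1 (5 tailed reads per length, a mean of 20 per group), over all rows with Benjamini-Hochberg adjustment at 0.05 (R 4.3.3). Run 1 and run 2 were fitted separately. In run 1, levels were fitted over N2, gld-2 and cpb-3, and tails over gld-2 and cpb-3 only. In run 2, the RNAi contrasts were fitted over control RNAi and the other RNAi groups. The embryo contrast was fitted over those groups and embryos. Scripts were tested on simulated data.

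The 74 genes and the gene lists were chosen with earlier results of these data known. Genes were named mainly by fixed rules. These took the 10 genes with the highest mean CPM in the mutants, and the 3 highest in control RNAi and in embryos. They also took the 4 (mutants) or 3 (run 2) with the smallest adjusted p per direction, those next to the thresholds, and neighbouring pairs. Outside these rules, R09E10.6, F40F9.3, T08B6.4 and K01H12.4 were named after their values were seen, for extreme ratios or for having no read. Rules on protein class and identity were not applied, as protein sequences were not used here. Names, exons and coding lengths come from the WBcel235 annotation and the RefSeq gene table by sequence name, and coordinates are those of the deposited files. Counting intervals and limits cover counting error only. No pair of replicates agreed within sampling noise.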

Additional observations from a re-analysis of the deposited data

How the results depend on the processing

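Of the values for named genes, 101 kept direction and side of the threshold under the alternatives and 16 kept direction only. The set held 20 genes with an offset of 1 CPM, 37 with a minimum of 5 CPM and 25 with a fold of 8, and 71 to 80 with a library left out. Between the mutants 41 to 51 genes were called for level with a library left out, and 0 to 23 for tails. The shares of all rows called were then 28.5% to 36.5% for level and 0% to 15.9% for tails. For tails, 6 were called with centred lengths, against 2.97% of all rows, and 21 with read weights, against 19.8%.

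Against control RNAi, 3 genes were called for level under panl-2 RNAi with no low count filter, against 1.71% of all rows. F17E9.5 was the single tail call under ccf-1 RNAi, and with any library left out its difference ran from 7.3 to 10.6 nt. No gene was called for tails there with a mean of 10 tailed reads, with centred lengths or with read weights. Of all rows, 11.1%, 0% and 19% were called in these settings. For embryos, 25 were called for level with no low count filter (24 lower, 1 higher), against 13.3% of all rows. With any library of embryos or control RNAi left out, fewer genes were called lower than in the main fit. In the leave-one-out fits a lone library is assumed to vary like the other groups. The causes were not tested.

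Replicate numbers were not taken as pairs in the main fits. Between gld-2 and cpb-3 the correlations of deviations at the same number were 0.36, 0.068 and 0.325. Between the RNAi groups and control RNAi, with 2 pairs each, these were 0.138 to 0.284, and between embryos and control RNAi -0.0806. No values for unlike numbers are given beside them, so they cannot decide whether the numbers mark pairs, and a shared replicate batch was not tested. With the replicate number as a block, 47 genes were called between the mutants for level (46 higher in gld-2, 1 lower). For tails between the mutants 14 were called. The shares of all rows were 34.9% for level and 6.58% for tails. In embryos 13 were called for level, against 23.7% of all rows, and under ccf-1 RNAi 2 for tails, against 23%. No other count of calls moved. Depth limits run 2, where 39 of the 74 genes had under 20 reads over both control libraries.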
